A study of Homo sapiens with 12 samples.

Results

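The MAPK phosphatases of the DUSP family are the dual-specificity enzymes that switch off MAP kinases. They were taken from the expression data by gene symbol, as DUSP1, DUSP2, DUSP4, DUSP5, DUSP6, DUSP7, DUSP8, DUSP9, DUSP10 and DUSP16, and the rule itself uses no measured value, although the family was picked with earlier results of these data known. All 10 were found among the 19907 gene symbols, and all 10 were among the 18579 symbols that had at least 10 reads summed over the 12 libraries and were tested. RNA-seq had been run on MDA-MB-231 cells, an established human triple-negative breast cancer (TNBC) line that expresses the glucocorticoid receptor (GR). Cells carried either wt-GR or S134A-GR, a receptor in which alanine replaces the serine Ser134. Both lines were starved for 18 h in IMEM with 1% DCC, a charcoal-stripped serum, and then held for 6 h with vehicle or with TGFβ1 at 10 ng/mL, with no glucocorticoid added in any group. Each of the 4 groups (wt-GR with vehicle, wt-GR with TGFβ1, S134A-GR with vehicle, S134A-GR with TGFβ1) had 3 libraries. The S134A-GR line was clone #1 of a CRISPR edit, with both alleles changed and a silent change added at the guide's PAM. The wt-GR line was a clone from the same procedure that had kept the normal receptor. With 1 clone for each genotype, the genotype and the clone cannot be told apart in any difference between the lines.

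A MAP kinase is active when a threonine and a tyrosine in its activation loop both carry phosphate, and a DUSP phosphatase removes both. DUSP1, DUSP2, DUSP4 and DUSP5 are nuclear enzymes whose genes are switched on by mitogens and stress, DUSP6, DUSP7 and DUSP9 are cytoplasmic and prefer ERK, and DUSP8, DUSP10 and DUSP16 prefer JNK and p38. Several are transcribed in response to the very kinase they inactivate, which makes their transcripts a common readout of ERK activity, and DUSP1 is also a classical glucocorticoid-induced gene. Ser134 of GR is a p38 MAPK site, and TGFβ1 can activate p38 through TAK1, which is the setting in which the phosphatases were examined.

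Proximal promoters are shown for 5 members that differ in how they behaved and in the motifs they hold. DUSP1, DUSP6, DUSP7 and DUSP10 passed the test in at least 1 comparison, and DUSP8, which was nearly silent, holds an element that DUSP1 also has. Each sequence is the 250 bases before the RefSeq transcript start (GRCh38.p14, minus strand in all 5, printed 5′ to 3′), and capitals mark matches to the motifs searched. The windows are chr5:172771196-172771445 for DUSP1, chr12:89352502-89352751 for DUSP6, chr3:52056572-52056821 for DUSP7, chr11:1572272-1572521 for DUSP8 and chr1:221742090-221742339 for DUSP10.
DUSP1: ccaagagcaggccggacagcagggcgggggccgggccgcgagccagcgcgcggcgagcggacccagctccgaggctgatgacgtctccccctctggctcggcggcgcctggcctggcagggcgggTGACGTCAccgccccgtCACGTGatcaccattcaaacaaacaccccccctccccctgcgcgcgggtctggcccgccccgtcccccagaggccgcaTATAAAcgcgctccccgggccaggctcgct
DUSP6: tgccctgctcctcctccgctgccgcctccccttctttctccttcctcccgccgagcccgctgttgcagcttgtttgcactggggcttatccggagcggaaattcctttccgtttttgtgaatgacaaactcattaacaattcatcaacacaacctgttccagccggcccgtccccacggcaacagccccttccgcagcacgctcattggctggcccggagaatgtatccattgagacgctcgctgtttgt
DUSP7: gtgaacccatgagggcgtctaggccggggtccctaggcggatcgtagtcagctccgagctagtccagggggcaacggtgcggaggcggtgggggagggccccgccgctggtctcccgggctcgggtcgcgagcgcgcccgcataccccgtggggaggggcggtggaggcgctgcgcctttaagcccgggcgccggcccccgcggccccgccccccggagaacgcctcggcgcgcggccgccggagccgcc
DUSP8: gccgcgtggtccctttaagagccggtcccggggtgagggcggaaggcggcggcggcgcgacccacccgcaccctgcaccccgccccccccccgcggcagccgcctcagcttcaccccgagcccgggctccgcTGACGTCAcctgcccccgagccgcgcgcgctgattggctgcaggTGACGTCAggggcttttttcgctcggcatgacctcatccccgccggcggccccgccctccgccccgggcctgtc
DUSP10: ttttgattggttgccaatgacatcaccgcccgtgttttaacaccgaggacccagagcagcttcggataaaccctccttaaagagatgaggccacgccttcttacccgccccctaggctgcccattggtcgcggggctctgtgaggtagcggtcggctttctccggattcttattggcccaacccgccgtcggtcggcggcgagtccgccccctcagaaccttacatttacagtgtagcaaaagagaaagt

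The search covered both strands of 10 windows from 8 members, and DUSP4 and DUSP5 were not among them. The motifs were the cAMP response element TGACGTCA, the AP-1 element TGANTCA, the E-box CACGTG, the glucocorticoid response element (AGAACA and TGTTCT with 3 bases between), the SMAD palindrome GTCTAGAC and the TATA element TATAAA. DUSP1 held 1 cAMP response element from 125 to 118 bases before the start, 1 E-box from 108 to 103 bases before it and 1 TATA element from 30 to 25 bases before it, with no overlap between them. DUSP8 held 2 cAMP response elements, from 118 to 111 and from 74 to 67 bases before the start. DUSP2 held 1 E-box, and the windows of DUSP6, DUSP7, DUSP9, DUSP10 and DUSP16 held no match. Over 35116 promoter windows of the same length, 1.65% held the cAMP response element, 6.34% the E-box, 10.7% the TATA element, 6.57% the AP-1 element, 0.182% the SMAD palindrome and 0.00285% the glucocorticoid response element. A match describes the letters only, and the windows leave out any distal element.

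The recovered reads behind the deposited normalized counts came to between 56362036 and 129832227 per library, above the average depth the labels state, and whether 1 recovered unit is a read or a read pair is not given in the sources used here. A count of 3 reads, the limit that a count of 0 allows, stood at 2.15 to 4.89 normalized counts, which covers counting error only. Markers listed for this line gave a mixed picture. VIM, which encodes the mesenchymal filament protein vimentin, was high, at 419832 to 533198 normalized counts. The estrogen receptor gene ESR1, at 0 to 7.32, and the epithelial cadherin gene CDH1, at 1.05 to 12.5, were low. EPCAM, at 318 to 1093, and ERBB2, at 7229 to 10589, had been listed as low or absent and were detected. PECAM1, listed as a marker of other cell types, was detected too, at 746 to 1454. Gene-level counts cannot show the Ser134 substitution. NR3C1, the gene for GR, had less RNA in S134A-GR than in wt-GR cells, at −0.41 ± 0.07 (SE) on the log2 scale under vehicle (adjusted p = 0.00012) and −0.31 ± 0.07 under TGFβ1 (adjusted p = 0.00134). At the protein level, the study reported total GR to be equal in its lines by Western blot. The part of the NR3C1 level in the results below was not tested. The labels do not say that libraries of a group came from separate cultures, so p-values measure the spread between these libraries only. Unless another test is named, adjusted p is that of limma's moderated test on log2(normalized count + 1) in all 12 libraries, with Benjamini-Hochberg adjustment over the 18579 genes, and a gene was called at an adjusted p under 0.05. Fold changes are on that log2 scale, which understates changes of low genes, and a value after ± beside one is its SE.

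Ordered by level per kb of transcript (the MANE transcript, the reference isoform of each gene), DUSP4 and DUSP6 led in every group. In wt-GR cells under vehicle, DUSP4 stood at 7235 ± 128 normalized counts per kb (mean ± SD, n = 3), DUSP6 at 6996 ± 206, DUSP5 at 4465 ± 328, DUSP7 at 2159 ± 54 and DUSP1 at 1584 ± 55. DUSP16 followed at 310 ± 5.3 and DUSP10 at 162 ± 17, with DUSP9 at 9.34 ± 2.4, DUSP2 at 0.645 ± 1.1 and DUSP8 at 0.583 ± 0.67. The means of DUSP4 and DUSP6 differed by less than the sum of their SDs, as did those of DUSP2 and DUSP8, while the remaining neighbours in the order were further apart than their spread. Among 14547 genes with such a length, DUSP4 ranked between 858 and 1776 over the 12 libraries, DUSP6 between 890 and 1692, DUSP5 between 1415 and 2437, and DUSP1 between 3303 and 3887. Thus 3 ERK-directed enzymes, DUSP4, DUSP5 and DUSP6, carried most of the family's transcripts, and the JNK and p38 enzymes carried little. Under TGFβ1 the leading pair changed order in wt-GR cells, with DUSP6 at 5851 ± 127 and DUSP4 at 5090 ± 193 normalized counts per kb, while in S134A-GR cells the pair lay within its spread, at 4226 ± 210 and 4077 ± 236.

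**Figure D1:**
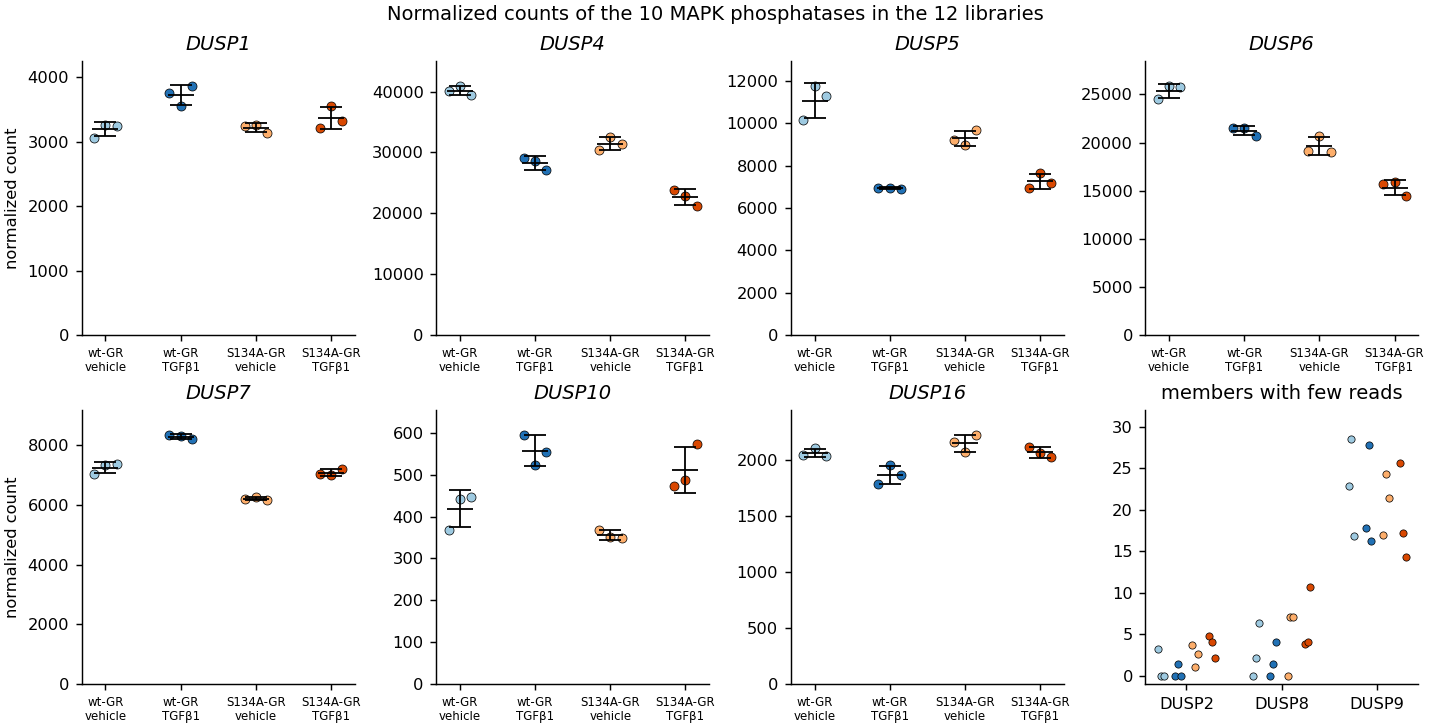
Normalized counts (vertical axes, from 0 except in the last panel) of the 10 MAPK phosphatase genes in the 12 libraries, by group. Points are libraries, bars are the mean and SD of 3, and the last panel shows the 3 genes with few reads without means (groups in the colors of the other panels, in the same order from left to right). DUSP4 falls from 39508 or more to 29126 or less in wt-GR cells given TGFβ1, while DUSP7 and DUSP10 rise in both lines.

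DUSP2, DUSP8 and DUSP9 were at or near the limit of detection. DUSP2, a nuclear ERK and p38 phosphatase known best from lymphocytes, had 24 reads in all 12 libraries together and was under 3 reads in 7 of them. Its 3 values were 3.26, 0 and 0 normalized counts in vehicle-treated wt-GR cells and 0, 1.46 and 0 under TGFβ1. In S134A-GR cells they were 3.77, 1.01 and 2.67 under vehicle and 4.76, 4.05 and 2.15 under TGFβ1. The values under TGFβ1 did not overlap between the lines, yet the test missed the threshold (adjusted p = 0.0505). Most of the DUSP2 reads came from S134A-GR libraries, and the wt-GR reads alone would have fallen short of the minimum for testing. The separation thus concerns a gene that was tested because of the line in which it is higher. Leaving out any library of wt-GR cells under vehicle moved adjusted p to between 0.027 and 0.049. Those libraries are outside this comparison, so the shared spread changed and the fold change did not. For the lines under TGFβ1, DUSP2 passed in 6 of 20 alternatives. Under vehicle it passed (adjusted p = 0.0493) only without wt-GR replicate 1, the vehicle library of that line in which it was seen. DUSP8, a JNK and p38 phosphatase abundant in brain, had 52 reads in all, between 0 and 10.7 normalized counts, and was under 3 reads in 5 libraries. Of the 75-base stretches of the DUSP8 exons, 0.328% also occur in DUSP8P1 or DUSP8P5, and no other member shared any such stretch. DUSP9, an ERK phosphatase of placenta and other tissues, had 257 reads and lay between 14.3 and 28.5 normalized counts in every group. None of the 3 was called in any comparison, and 95% confidence intervals of the DUSP9 difference between the lines ran from −0.80 to 0.60 under vehicle and from −0.81 to 0.59 under TGFβ1.

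The first question was which phosphatases respond to TGFβ1 in cells with wt-GR. DUSP4, DUSP5 and DUSP6, the 3 most abundant members, fell, and DUSP1, DUSP7 and DUSP10 rose. DUSP16 also passed the test, as the smallest change. In all, 7 of 10 members were called, 3 higher and 4 lower, where 21.0% of all tested genes were called, 11.2% higher and 9.82% lower. The median log2 fold change over the members was −0.20, against −0.0046 over all genes. Like the member medians below, it includes DUSP2, DUSP8 and DUSP9, whose changes are poorly measured. The groups did not overlap in any of the 7. Here and in the comparisons below, such separation only describes the genes named, since its share over all genes was not counted.

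Of the members that fell, DUSP5, the nuclear phosphatase that binds and inactivates ERK, had the greatest change. Its normalized counts in wt-GR cells were 10166, 11754.5 and 11261 under vehicle and 6958, 6949 and 6901 under TGFβ1. The 3 treated libraries lay close together and under the lowest vehicle library. The log2 fold change was −0.67 ± 0.05 (adjusted p = 3.73e-07), a level 0.628 times that under vehicle. DUSP4, which acts on nuclear ERK and JNK, stood at 40106, 40919 and 39508 under vehicle and at 29126, 28606 and 27063 under TGFβ1. Every treated library was thus under every vehicle library, and the log2 fold change was −0.51 ± 0.04 (adjusted p = 1.15e-06). DUSP6, the cytoplasmic ERK phosphatase, went from 24516, 25873 and 25733 to 21491, 21487 and 20689. Its groups were apart as well, by less, and the log2 fold change was −0.26 ± 0.04 (adjusted p = 0.000643).

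DUSP10, which dephosphorylates JNK and p38, rose the most. Its normalized counts were 368, 442 and 446 under vehicle and 594, 522 and 555 under TGFβ1 in wt-GR cells, so that the lowest treated library was above the highest vehicle library. The log2 fold change was 0.41 ± 0.10 (adjusted p = 0.00888), or 1.33-fold. DUSP1, which inactivates p38, JNK and ERK, had values of 3062, 3258 and 3245 under vehicle and 3747, 3556 and 3861 under TGFβ1. The groups did not overlap, and the log2 fold change was 0.22 ± 0.05 (adjusted p = 0.00383). DUSP7, a cytoplasmic ERK phosphatase close in sequence to DUSP6, stood at 7050.4, 7332 and 7389 under vehicle and at 8349, 8331 and 8206 under TGFβ1. It moved opposite to DUSP6, with a log2 fold change of 0.19 ± 0.03 (adjusted p = 0.00053). DUSP16, a JNK and p38 phosphatase that shuttles between nucleus and cytoplasm, went from 2049.8, 2106 and 2041 to 1790.8, 1954 and 1869. Its log2 fold change of −0.14 ± 0.05 passed narrowly (adjusted p = 0.0447) and did not pass with edgeR's quasi-likelihood test (adjusted p = 0.0628), with TMM scaling (0.0546), with a replicate block (0.0721) or with the groups compared alone (0.0867). It also missed the threshold when any library of wt-GR cells under vehicle, replicate 1 or 3 of wt-GR cells under TGFβ1, replicate 1 or 3 of S134A-GR cells under vehicle, or replicate 2 or 3 of S134A-GR cells under TGFβ1 was left out, where adjusted p was 0.0509 to 0.172.

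The same question in cells with S134A-GR gave 5 of 10 members called, 2 higher and 3 lower, where 18.7% of all tested genes were called, 10.0% higher and 8.69% lower. DUSP4, DUSP5 and DUSP6 fell and DUSP7 and DUSP10 rose, and DUSP1 and DUSP16 did not pass. The median over the members was 0.0041, against −0.0097 over all genes. Set against the −0.20 of wt-GR cells, it does not show a different response of the family. DUSP2 (−0.26 in wt-GR and 0.46 in S134A-GR cells) and DUSP8 (−0.29 and 0.70), near the limit of detection and not called, enter both medians. DUSP4 stood at 30424, 32503.5 and 31432 under vehicle and at 23806, 22896 and 21222 under TGFβ1. Again every treated library lay under every vehicle library, with a log2 fold change of −0.48 ± 0.04 (adjusted p = 2.67e-06). DUSP5 went from 9226, 8956 and 9673 to 6929, 7633 and 7182, so that its treated libraries reached the level of the treated wt-GR libraries from a lower start. Its log2 fold change was −0.36 ± 0.05 (adjusted p = 0.000204). DUSP6 went from 19123, 20677 and 19027 to 15653, 15870.4 and 14455, with a log2 fold change of −0.36 ± 0.04 (adjusted p = 4.33e-05). The treated and untreated libraries did not overlap for any of these genes.

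In S134A-GR cells DUSP7 rose from 6194, 6273 and 6184 to 7037, 7000.2 and 7223 normalized counts, a log2 fold change of 0.19 ± 0.03 (adjusted p = 0.000734). DUSP10 rose from 369, 351 and 348 to 473, 486 and 573, a log2 fold change of 0.51 ± 0.10 (adjusted p = 0.00228) or 1.43-fold. The treated and untreated libraries were apart for both. DUSP1 stood at 3247, 3255 and 3133 under vehicle and at 3217, 3546 and 3323 under TGFβ1. These values overlapped, and the log2 fold change was 0.06 ± 0.05 with a 95% confidence interval of −0.04 to 0.17 (adjusted p = 0.404). DUSP16 stood at 2162, 2075 and 2226 under vehicle and at 2122, 2062 and 2029 under TGFβ1, also overlapping, with a log2 fold change of −0.06 ± 0.05 and an interval of −0.16 to 0.04 (adjusted p = 0.474).

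**Figure D2:**
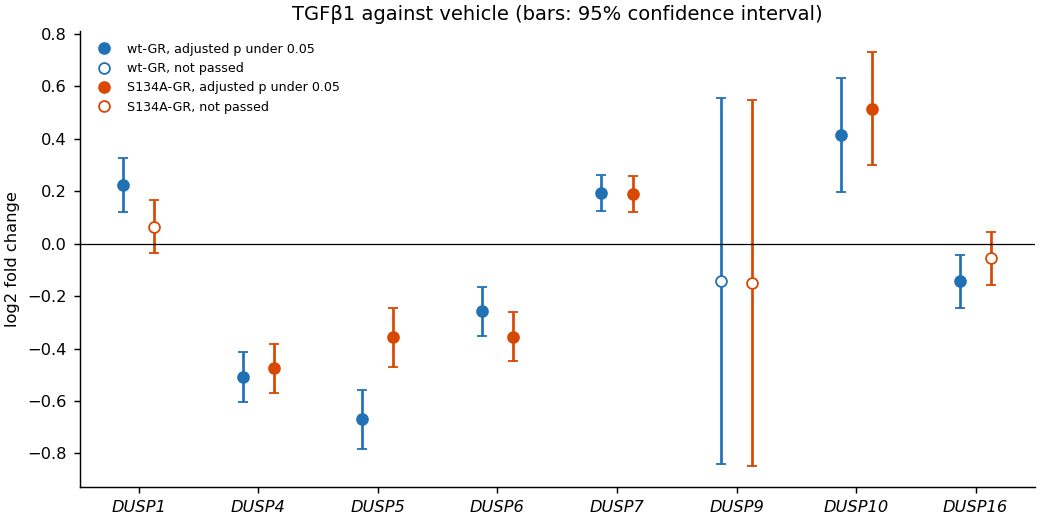
Log2 fold change of TGFβ1 against vehicle (vertical axis, log2 scale) for 8 members in wt-GR and S134A-GR cells. Points are the fitted values, bars their 95% confidence intervals, and filled points passed an adjusted p of 0.05. DUSP4, DUSP5 and DUSP6 are below 0 and DUSP7 and DUSP10 above 0 in both lines, and DUSP2 and DUSP8 are left out for want of reads.

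Whether the TGFβ1 responses differed between the lines was tested directly, as the S134A-GR response minus the wt-GR response. No member was called by limma, where 0.414% of all tested genes were called, and 2 members, DUSP1 and DUSP5, had an unadjusted p under 0.05. The edgeR quasi-likelihood test called 0 members and the DESeq2 Wald test called 1. For DUSP5 the difference was 0.31 ± 0.07 with an interval of 0.16 to 0.47, a smaller fall in S134A-GR cells, with an unadjusted p of 0.000802 and an adjusted p of 0.113 by limma. DESeq2 on the recovered reads gave it an adjusted p of 0.00727, and limma without wt-GR vehicle replicate 1, the library with the fewest reads and the lowest DUSP5 value of its group, gave 0.0253. Over all the alternatives the adjusted p of DUSP5 ran from 0.00727 to 0.292. For DUSP1 the difference was −0.16 ± 0.07 with an interval of −0.30 to −0.01 (unadjusted p = 0.0343, adjusted p = 0.502), so the DUSP1 responses, called in wt-GR and not called in S134A-GR cells, were not shown to differ. The responses of DUSP4 and DUSP7 differed by 0.03 (interval −0.10 to 0.17) and −0.0044 (interval −0.10 to 0.092). Those of DUSP6, DUSP10 and DUSP16 differed by −0.10 (−0.23 to 0.03), 0.10 (−0.21 to 0.41) and 0.09 (−0.06 to 0.23). In each gene list set beside the members below, limma called 0 genes for this difference.

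The lines were then compared with each other under each condition, in the same libraries as the responses, so that these values and the responses are not independent of each other. Under vehicle, DUSP4, DUSP5, DUSP6 and DUSP7 were lower in S134A-GR cells and no member was higher, so that 4 of 10 members were called. This share has to be read against the 51.5% of all tested genes called in this comparison, 25.0% higher and 26.5% lower. The member median was −0.16, against 0.019 over all genes. DUSP6 differed by −0.37 ± 0.04 (adjusted p = 6e-06), with 25374 ± 746 normalized counts (SD, n = 3) for wt-GR and 19609 ± 926 for S134A-GR cells. The difference was −0.35 ± 0.04 for DUSP4 (adjusted p = 1.07e-05), −0.25 ± 0.05 for DUSP5 (adjusted p = 0.000951) and −0.22 ± 0.03 for DUSP7 (adjusted p = 4.05e-05). For each of these 4 genes, all 3 S134A-GR libraries lay below all 3 wt-GR libraries listed above.

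The other well-detected members did not pass under vehicle. DUSP1 stood at 3188 ± 110 in wt-GR and 3212 ± 68 in S134A-GR cells, a difference of 0.011 with an interval of −0.091 to 0.11 (adjusted p = 0.87). DUSP16 differed by 0.06, with an interval of −0.04 to 0.16 (adjusted p = 0.311). DUSP10 differed by −0.23 ± 0.10 (adjusted p = 0.0715) and overlapped, since wt-GR replicate 1 had 368 and S134A-GR replicate 1 had 369. Without wt-GR vehicle replicate 1 its difference was −0.32 (adjusted p = 0.0175), and DESeq2 gave −0.25 (adjusted p = 0.0495).

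Under TGFβ1, 5 of 10 members were called, 1 higher and 4 lower, where 48.8% of all tested genes were called, 23.1% higher and 25.7% lower. The member median was −0.12, against 0.012 over all genes. DUSP6 was lower in S134A-GR cells, at −0.47 ± 0.04 (adjusted p = 6.89e-07), DUSP4 at −0.32 ± 0.04 (adjusted p = 2.96e-05) and DUSP7 at −0.23 ± 0.03 (adjusted p = 3.71e-05). These 3 ERK-directed phosphatases were thus lower in S134A-GR cells in both conditions, each time with no overlap of the libraries. DUSP5, lower under vehicle, was at 6936 ± 31 in wt-GR and 7248 ± 357 in S134A-GR cells given TGFβ1, a difference of 0.06 with an interval of −0.05 to 0.17 (adjusted p = 0.351). The test of that change between conditions is the test of the 2 responses given above.

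DUSP1 was lower in S134A-GR cells given TGFβ1, at −0.15 ± 0.05 (adjusted p = 0.0194), and its 3 libraries, 3217, 3546 and 3323, all lay under the lowest wt-GR value of 3556, the nearest only just. The call was lost without replicate 1 or 3 of either line's TGFβ1 group, where adjusted p was 0.0541 to 0.0852. DUSP16 was higher by 0.15 ± 0.05 (adjusted p = 0.0187), and this call was lost without replicate 1 of either TGFβ1 group (adjusted p 0.0838 without the wt-GR library and 0.0585 without the S134A-GR library). Without either of those libraries, 3 members were called in place of 5. DUSP10 differed by −0.13 with an interval of −0.35 to 0.09 (adjusted p = 0.318).

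**Figure D3:**
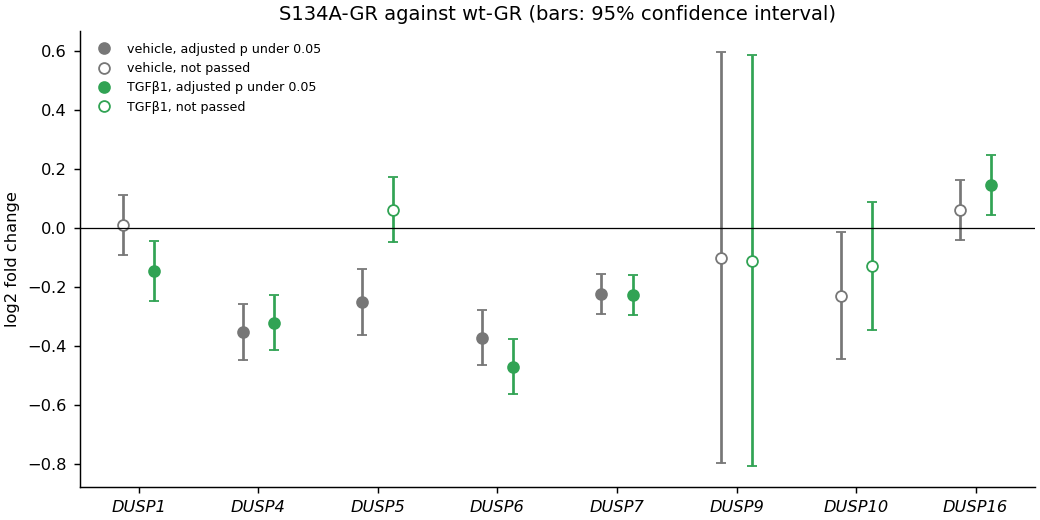
Log2 difference of S134A-GR from wt-GR cells (vertical axis, log2 scale) for 8 members under vehicle and under TGFβ1. Points are the fitted values, bars their 95% confidence intervals, and filled points passed an adjusted p of 0.05. DUSP4, DUSP6 and DUSP7 are below 0 in both conditions and DUSP5 is below 0 under vehicle, with an interval of 0.16 to 0.47 for its change between the conditions that was not called (adjusted p = 0.113).

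Summed per kb of transcript, the 10 members came to 22166, 23547 and 23053 normalized counts per kb in vehicle-treated wt-GR cells and to 18830, 18634 and 18226 under TGFβ1. In S134A-GR cells the sums were 18408, 19112 and 18689 under vehicle and 15607, 15932 and 15041 under TGFβ1. The lowest sums were therefore those of S134A-GR cells given TGFβ1, and untreated S134A-GR cells overlapped with treated wt-GR cells. These sums are a description without a test. The nuclear enzymes DUSP1, DUSP2, DUSP4 and DUSP5 made up 58.0% ± 0.37 (SD, n = 3) of the sum in vehicle-treated wt-GR cells and 52.5% ± 0.25 under TGFβ1. In S134A-GR cells their share was 58.8% ± 0.76 and 55.9% ± 0.37. The cytoplasmic ERK enzymes DUSP6, DUSP7 and DUSP9 held 39.6% to 40.3% under vehicle and 44.7% to 45.2% under TGFβ1 over the wt-GR libraries, with means of 38.8% ± 0.84 and 40.8% ± 0.28 in S134A-GR cells. The JNK and p38 enzymes DUSP8, DUSP10 and DUSP16 held between 2.06% and 3.28% of the sum as group means. In absolute level that last class was at 472 ± 20, 497 ± 1.6, 462 ± 12 and 509 ± 16 normalized counts per kb in wt-GR cells with vehicle and TGFβ1 and S134A-GR cells with vehicle and TGFβ1, and every library given TGFβ1 (495 to 528) lay above every vehicle library (448 to 487). Within the class, DUSP10 was higher under TGFβ1 and DUSP16 was not.

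**Figure D4:**
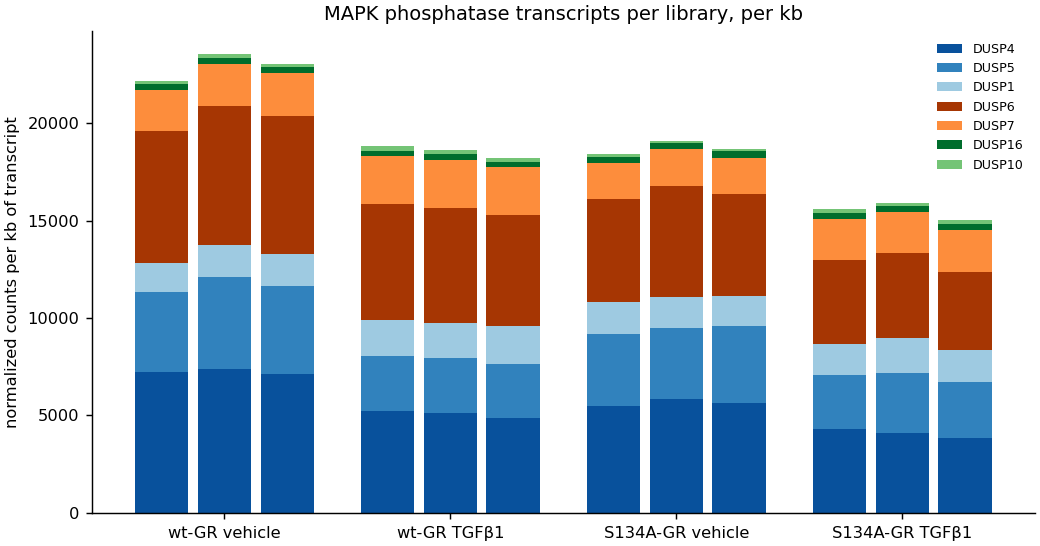
Stacked normalized counts per kb of transcript (vertical axis, from 0) of the 7 well-detected members in each of the 12 libraries, 3 bars for each group. Blue shades are nuclear enzymes, orange shades cytoplasmic ERK enzymes and green shades JNK and p38 enzymes. The sums over all 10 members, of which the 3 not drawn are too small to see at this scale, are highest in vehicle-treated wt-GR cells, at 22166 to 23547, and lowest in S134A-GR cells given TGFβ1, at 15041 to 15932.

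The other negative regulators of the ERK pathway give the nearest comparison. Sprouty and SPRED proteins block signaling between growth factor receptors and ERK, and, like several DUSP genes, are often transcribed downstream of ERK itself. Of 6 tested, 5 were lower in S134A-GR cells under vehicle and the same number under TGFβ1, with medians of −0.52 and −0.35, where 26.5% and 25.7% of all tested genes were lower. SPRY1 differed most under vehicle, at −0.90 ± 0.08 (adjusted p = 3.29e-07), from 2259 ± 81 normalized counts in wt-GR to 1207 ± 27 in S134A-GR cells. SPRED2 differed by −0.83 ± 0.06 under vehicle (adjusted p = 4.3e-08) and −0.75 ± 0.06 under TGFβ1 (adjusted p = 1.17e-07), and SPRY4 differed by −0.59 ± 0.04 under TGFβ1 (adjusted p = 4.36e-08). These differences had the same sign as those of DUSP4 and DUSP6.

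In response to TGFβ1, 3 of the 6 Sprouty and SPRED genes fell and none rose in wt-GR cells, and 2 fell and 1 rose in S134A-GR cells, with medians of −0.18 and −0.12. Of all genes, 9.82% and 8.69% fell in these comparisons. In wt-GR cells SPRY1 fell from 2259 ± 81 to 894 ± 65 normalized counts, a log2 fold change of −1.34 ± 0.08 (adjusted p = 2.08e-08). In S134A-GR cells it fell from 1207 ± 27 to 677 ± 77, a log2 fold change of −0.84 ± 0.08 (adjusted p = 3e-06). SPRY2 also fell, with changes of −0.40 ± 0.05 in wt-GR cells (adjusted p = 2.43e-05) and −0.36 ± 0.05 in S134A-GR cells (adjusted p = 8.28e-05). The gene that rose was SPRY4, by 0.13 in S134A-GR cells (adjusted p = 0.0493). By the direct test, the responses of SPRY1 (adjusted p = 0.0915) and SPRY4 (adjusted p = 0.663) were not shown to differ between the lines.

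**Figure D5:**
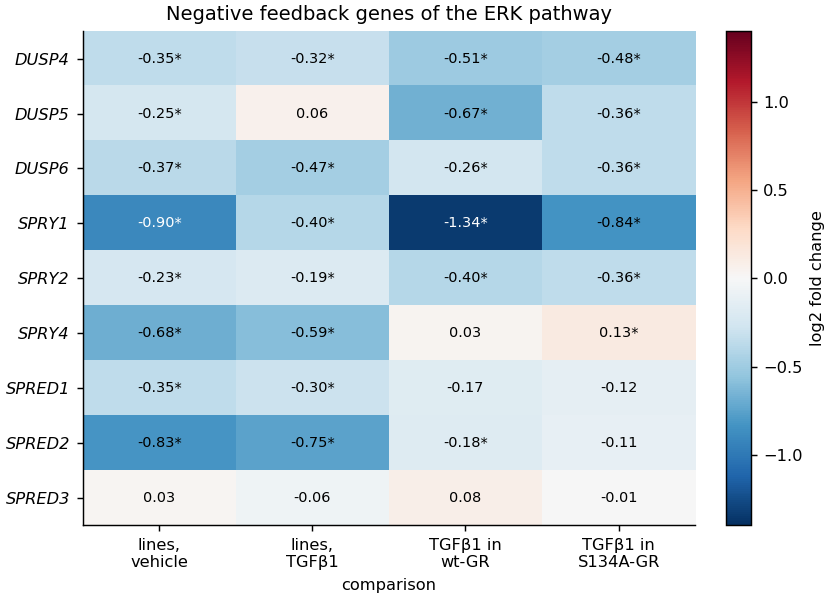
Log2 fold change (color and printed value, blue for lower and red for higher) of DUSP4, DUSP5, DUSP6 and the 6 tested Sprouty and SPRED genes in 4 comparisons. These are S134A-GR against wt-GR cells (lines) under vehicle and under TGFβ1, and TGFβ1 against vehicle in each line. The phosphatases drawn are the members that fell with TGFβ1 in both lines. DUSP7, also ERK-directed, is not drawn and rose with TGFβ1, by 0.19 in wt-GR and 0.19 in S134A-GR cells. An asterisk marks an adjusted p under 0.05. SPRY1 has the lowest value, −1.34, and DUSP4, DUSP6, SPRY1 and SPRY2 are lower with an asterisk in all 4.

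MAP kinases, on which the phosphatases act, and the MAP kinase kinases above them moved in both directions. The counts of these and the next lists are to be read against the shares of all genes called, which were 51.5% and 48.8% between the lines and 21.0% and 18.7% for TGFβ1 in wt-GR and S134A-GR cells. Of 17 MAP kinases and MAP kinase kinases, 2 were higher in S134A-GR cells under vehicle and 9 were lower, and 2 were higher and 7 lower under TGFβ1, with medians of −0.10 and −0.023. MAPK11, which encodes p38β, was higher by 0.86 ± 0.10 under vehicle (adjusted p = 4.23e-06) and 0.81 ± 0.10 under TGFβ1 (adjusted p = 8.23e-06). MAP2K6, a kinase that activates p38, was lower, at −1.09 ± 0.18 (adjusted p = 0.000119) and −1.58 ± 0.18 (adjusted p = 4.31e-06). MAP2K3, another p38 activator and the more abundant of the pair in reads, was higher by 0.49 ± 0.05 under vehicle (adjusted p = 1.8e-06), at 16096 against 11441 normalized counts, and by 0.40 ± 0.05 under TGFβ1 (adjusted p = 1.46e-05). With TGFβ1, 3 rose and 3 fell in wt-GR cells and 5 rose and 4 fell in S134A-GR cells, with medians of −0.027 and −0.043. MAP2K6 fell in both lines, at −1.31 ± 0.18 (adjusted p = 9.34e-05) and −1.79 ± 0.18 (adjusted p = 5.01e-06), and so did MAP2K3, at −0.39 ± 0.05 (adjusted p = 6.38e-05) and −0.48 ± 0.05 (adjusted p = 9.79e-06). DUSP10, an inactivator of p38, rose in both lines while MAP2K3 and MAP2K6 fell. Of the p38 genes themselves, MAPK13 rose, at 0.33 ± 0.06 in wt-GR (adjusted p = 0.000941) and 0.27 ± 0.06 in S134A-GR cells (adjusted p = 0.00468). MAPK14 was not called in either line, at 0.011 and −0.035. Whether these changes are linked was not tested.

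Phosphatases of other classes that act on MAP kinases also moved in both directions. Of 7 tested, 1 was higher and 3 were lower in S134A-GR cells, under vehicle and again under TGFβ1 (medians −0.21 and −0.17), and TGFβ1 raised 3 and lowered 1 in each line (medians 0.10 and 0.096). PTPRR, a tyrosine phosphatase of ERK, was higher in S134A-GR cells by 0.61 ± 0.11 under vehicle (adjusted p = 0.000275) and 0.75 ± 0.11 under TGFβ1 (adjusted p = 5.16e-05). It rose with TGFβ1 by 1.01 ± 0.11 in wt-GR cells (adjusted p = 1e-05) and 1.15 ± 0.11 in S134A-GR cells (adjusted p = 3.31e-06). Its direction was opposite to that of DUSP4, DUSP5 and DUSP6 in both responses. PPM1B, a serine and threonine phosphatase, was lower in S134A-GR cells, at −0.48 ± 0.04 under vehicle (adjusted p = 7.58e-07) and −0.47 ± 0.04 under TGFβ1 (adjusted p = 9.32e-07). It fell with TGFβ1 in wt-GR cells, at −0.17 ± 0.04 (adjusted p = 0.0126) and −0.17 ± 0.04 in S134A-GR cells (adjusted p = 0.0165). PPP2CA, a catalytic subunit of PP2A, rose by 0.14 ± 0.04 in wt-GR cells (adjusted p = 0.012) and 0.17 ± 0.04 in S134A-GR cells (adjusted p = 0.00312).

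Of 14 tested atypical dual-specificity phosphatases, small relatives that lack the kinase-binding domain, 2 were higher in S134A-GR cells under vehicle and 4 were lower, and 1 was higher and 4 lower under TGFβ1 (medians 0.0083 and −0.13). TGFβ1 raised 3 of them in wt-GR and 2 in S134A-GR cells and lowered none (medians 0.054 and 0.074). DUSP3 rose by 0.31 ± 0.03 in wt-GR cells (adjusted p = 5.96e-06) and 0.34 ± 0.03 in S134A-GR cells (adjusted p = 2.88e-06), and DUSP23 rose by 0.45 ± 0.08 in wt-GR cells (adjusted p = 0.00128), with 0.22 in S134A-GR cells (adjusted p = 0.0892). STYX rose in S134A-GR cells by 0.20 ± 0.06 (adjusted p = 0.04), with 0.086 in wt-GR cells (adjusted p = 0.399). By the direct test, the responses of DUSP23 (adjusted p = 0.568) and STYX (adjusted p = 0.719) were not shown to differ between the lines. DUSP11, an RNA phosphatase, was lower in S134A-GR cells, at −0.51 ± 0.05 under vehicle (adjusted p = 7e-07) and −0.44 ± 0.05 under TGFβ1 (adjusted p = 2.81e-06). DUSP23 was higher by 0.44 ± 0.08 under vehicle (adjusted p = 0.000466), and STYXL1 was lower, at −0.30 ± 0.04 under TGFβ1 (adjusted p = 5.74e-05).

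Genes commonly induced by ERK were called in both directions, in shares to be read against the 51.5%, 48.8%, 21.0% and 18.7% of all genes. Of 15 tested, 4 were higher in S134A-GR cells under vehicle and 6 were lower, 2 higher and 6 lower under TGFβ1, and TGFβ1 raised 5 and lowered 5 in wt-GR cells and raised 3 and lowered 4 in S134A-GR cells, with medians of 0.0097, −0.26, 0.15 and −0.11 in that order. FOSB, an AP-1 subunit gene, was higher by 1.01 ± 0.25 in S134A-GR cells under vehicle (adjusted p = 0.00379) and rose by 1.03 ± 0.25 with TGFβ1 in wt-GR cells (adjusted p = 0.00944). EGR2 was higher by 0.66 ± 0.21 in S134A-GR cells under vehicle (adjusted p = 0.0168) and rose by 0.82 ± 0.21 with TGFβ1 in wt-GR cells (adjusted p = 0.0129). In S134A-GR cells the TGFβ1 values of FOSB and EGR2, 0.43 and 0.0025, did not pass. FOSL1, another AP-1 subunit gene, fell in both lines, at −0.61 ± 0.05 in wt-GR (adjusted p = 1.15e-06) and −0.56 ± 0.05 in S134A-GR cells (adjusted p = 3.07e-06), in the direction of DUSP4, DUSP5 and DUSP6. The immediate early gene IER2 rose in both, by 0.61 ± 0.05 (adjusted p = 1.27e-06) and 0.26 ± 0.05 (adjusted p = 0.00329). By the direct test, the responses of FOSB, EGR2 and IER2 were not shown to differ between the lines (adjusted p = 0.633, 0.405 and 0.0757). Under TGFβ1, IER2 was lower in S134A-GR than in wt-GR cells, at −0.72 ± 0.05 (adjusted p = 7.7e-08) and the cyclin D1 gene CCND1, at −0.43 ± 0.04 (adjusted p = 5.17e-07).

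DUSP1 can also be set beside 7 other genes commonly induced by glucocorticoids, in cells that had been given none. In S134A-GR cells 1 of the 7 was higher and 2 were lower under vehicle and again under TGFβ1 (medians −0.06 and −0.091). ERRFI1, a feedback inhibitor of EGFR, was lower, at −1.30 ± 0.04 under vehicle (adjusted p = 6.64e-12) and −1.15 ± 0.04 under TGFβ1 (adjusted p = 2.59e-11), and the clock gene PER1 was higher by 0.58 ± 0.06 (adjusted p = 2.03e-06) and 0.60 ± 0.06 (adjusted p = 1.58e-06). With TGFβ1, 1 of the 7 rose in wt-GR and 2 in S134A-GR cells and none fell (medians −0.029 and −0.04). SGK1, a kinase gene, rose 2.33-fold in wt-GR cells (adjusted p = 1.26e-08) and 2.09-fold in S134A-GR cells (adjusted p = 6.26e-08), beside 1.17-fold and 1.05-fold for DUSP1 (the second not called). ERRFI1 rose by 0.24 ± 0.04 in S134A-GR cells (adjusted p = 0.000222), with 0.091 in wt-GR cells (adjusted p = 0.0868). By the direct test, the responses of SGK1 (adjusted p = 0.647) and ERRFI1 (adjusted p = 0.356) were not shown to differ between the lines.

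The genes lie on different chromosomes for the most part. On GRCh38 (GENCODE annotation), DUSP5 occupies chr10:110497907-110511533 on the plus strand, DUSP6 chr12:89347235-89352501, DUSP7 chr3:52048919-52056571, DUSP1 chr5:172768096-172771195, DUSP10 chr1:221701424-221742089 and DUSP16 chr12:12473282-12562863 on the minus strand. Reads were counted over exons, and the strand setting of the counting is not given in the sources used here. An exon of DUSP1, DUSP6, DUSP8 and DUSP16 lies within or across the gene span of a long noncoding RNA on the opposite strand. Whether exons of that RNA reach the overlap was not examined. If they do and the counting ignored strand, reads from the shared part cannot be told apart. DUSP4, DUSP5, DUSP7 and DUSP10 have no such overlap.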

How the data were processed

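RNA-seq values of 12 MDA-MB-231 libraries were used, 3 for each of 4 groups that were set from the labels. The authors trimmed 75-base paired reads, used HISAT2 for alignment to hg38 and featureCounts (Subread) for counting, and divided each library by its DESeq2 size factor, so the deposited values are a normalized signal per gene, that is, a normalized count. In each library 100% of values were whole multiples of 1 step (tolerance 1e-06 of a read), which gave back the reads. Genes with at least 10 summed reads were fitted with limma 3.58.1 in R 4.3.3 on log2(normalized count + 1), with 4 group means, a trend and Benjamini-Hochberg adjustment. An exact permutation test of 3 against 3 cannot go below 0.1. Alternatives were edgeR 4.0.16 and DESeq2 1.42.0 on the recovered reads, pseudocounts of 0.5 and 16, filterByExpr, no filter beyond 1 read, TMM scaling, a replicate block, only the groups compared, and each library left out.

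The members, lists and tests were chosen with earlier results of these data known. All members were named, and, outside them, the mutated gene and, from each list and comparison, the 2 genes called with the largest absolute log2 fold change. SPRY4 in the response of S134A-GR cells was named after its values were seen, as were MAPK13 and MAPK14. The same holds for the markers VIM, ESR1, CDH1, EPCAM, ERBB2 and PECAM1. It also holds for the values of list genes in comparisons where they were not among the 2. Genes nearest in profile were to be named for members called with a log2 fold change past 1 in size, of which there were 0. Levels per kb used MANE transcript lengths from GENCODE, and promoters came from RefSeq (8 of 10 members matched). Replicates of a group differed by more than counting noise (9.06 to 46.2 times that noise, as a chi-square over its degrees of freedom). The fits were tested on simulated data.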

Additional observations from a re-analysis of the deposited data

How the results depend on the processing

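Each member result that passed the test was refitted with each library left out and under the other alternatives. Of the refits with a library left out, 237 kept the call and 15 lost it. Of the other refits, 185 kept it and 4 lost it. None of them changed sign. For a library outside the groups compared this was fixed in advance, since leaving it out changes the shared spread and not the fold change. The number of members called for the difference between responses was 0, against 1 with DESeq2 and 0 to 1 over libraries left out, and for the lines under TGFβ1 it was 5, against 3 to 6 over libraries left out. The number of all genes called for the difference between responses was 77, against 211 with DESeq2 and 22 to 166 over libraries left out. The cause was not tested.

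The replicate numbers do not pair the libraries. Over 13688 genes, deviations from group means of libraries with the same number had a mean r of 0.0051 (from −0.11 to 0.15), against −0.0024 for different numbers. With a replicate block, 4, 5, 6, 5 and 0 members were called for the lines under vehicle, the lines under TGFβ1, the response of wt-GR cells, that of S134A-GR cells and the difference of responses, against 4, 5, 7, 5 and 0 without it, and of all genes 58 differed in response in place of 77. The call lost was that of DUSP16 in wt-GR cells.

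Among results that did not pass, the difference in DUSP9 response turned to 0.0012 with a pseudocount of 16. Signs also turned when a library was left out. For the lines under vehicle, the values ran from −0.018 to 0.029 for DUSP1, −0.24 to 1.52 for DUSP8 and −0.29 to 0.072 for DUSP9, and under TGFβ1 from −0.34 to 0.12 for DUSP9. For the response in wt-GR cells they ran from −0.70 to 0.43 for DUSP2, −1.04 to 0.40 for DUSP8 and −0.37 to 0.032 for DUSP9, and in S134A-GR cells from −0.30 to 1.21 for DUSP8 and −0.38 to 0.024 for DUSP9. For the difference in response they ran from −0.0044 to 0.078 for DUSP4, −0.018 to 0.016 for DUSP7, −0.014 to 1.74 for DUSP8 and −0.24 to 0.22 for DUSP9. The 3 members with few reads account for most of these, which depth limits. filterByExpr removed DUSP2 and DUSP8, so they have no value there, and the difference in response could not be fitted with only the groups compared.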
